A study of Mus musculus with 196 samples.

Results

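The genes described here are 38 skeletal muscle genes, which encode parts of the sarcomere, its calcium machinery and the enzymes that supply it with energy. They were taken from a fixed list. Each was read from its probe set that named no other gene, or from the brightest such probe set where there were several. All 38 were measured, among 18820 genes in all. The arrays held RNA from whole skin of 100 untreated mice killed at 8 weeks of age. Tail skin was on 97 arrays (48 females, 49 males). Shaved dorsal skin labelled anagen, when hair grows, was on 14 arrays (8 females, 6 males). Shaved dorsal skin labelled non-anagen was on 85 arrays (41 females, 44 males). Each mouse was the offspring of an FVB/N father and an F1 mother, and the F1 mothers had FVB/N mothers and Mus spretus fathers, so every animal carried its own mix of FVB/N and Mus spretus alleles. A mouse gave at most 1 array per tissue, and 82 mice had both tail and non-anagen dorsal arrays. Every tail array came from batches 3 and 4 and every dorsal array from batches 1 and 2, and tissue cannot be told apart from batch. Values are log2 expression. As a guide to the low end of this scale, Kdm5d, Uty and Eif2s3y, which lie on the Y chromosome, read between 1.74 and 5.37 in the females. Over all genes, 2 tail, 2 anagen dorsal and 1 non-anagen dorsal arrays were least like the median profile of their group, with r between 0.956 and 0.971.

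Skeletal muscle fibres contract when myosin thick filaments pull on actin thin filaments, after calcium from the sarcoplasmic reticulum binds to troponin. Fast and slow fibres carry different isoforms of these proteins. Myh4, Myh1 and Myh2 encode the heavy chains of the IIb, IIx and IIa fast fibres, and Myh7 that of slow fibres, which is also made in heart. In mice the skin of the trunk lies on the panniculus carnosus, a thin sheet of striated muscle, and the tail holds muscles and tendons that run along its bones. Whether a piece of skin takes muscle with it when it is cut is not recorded in the labels. In these bulk samples, fewer muscle fibres and less RNA per fibre cannot be told apart.

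Of the 38 genes, 30 had a promoter in the RefSeq table (GRCm38.p6), which covers 250 bases before and 50 bases after each start. The 4 stretches printed here are those of the myosin heavy chain genes that set fibre type, because these genes behaved differently between the sites. Each holds the 150 bases before the start, on the gene's own strand, and capitals mark the searched motifs found in it.
Myh4 (chr11:67237662-67237811, plus strand): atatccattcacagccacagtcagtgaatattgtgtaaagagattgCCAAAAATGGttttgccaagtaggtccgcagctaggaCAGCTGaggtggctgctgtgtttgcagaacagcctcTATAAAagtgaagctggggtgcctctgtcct
Myh1 (chr11:67199952-67200101, plus strand): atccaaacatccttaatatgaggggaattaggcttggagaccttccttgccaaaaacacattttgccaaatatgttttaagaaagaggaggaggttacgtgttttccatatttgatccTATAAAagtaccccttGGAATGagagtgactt
Myh2 (chr11:67170877-67171026, plus strand): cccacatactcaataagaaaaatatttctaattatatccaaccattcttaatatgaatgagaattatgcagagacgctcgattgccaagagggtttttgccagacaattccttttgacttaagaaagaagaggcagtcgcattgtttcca
Myh7 (chr14:54994627-54994776, minus strand): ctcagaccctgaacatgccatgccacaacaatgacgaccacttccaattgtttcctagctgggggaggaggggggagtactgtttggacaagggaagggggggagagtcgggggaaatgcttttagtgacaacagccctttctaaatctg
Over the full window and both strands, the E-box CAGCTG was found in 14 of the 30 promoters (46.7%), against 16.1% of all 27024 promoters. CATTCC, the core of a TEAD factor site, was in 36.7% of the 30 and in 14.7% of all. The MEF2 motif was in 23.3% of the 30 and in 3.29% of all. The CArG box of serum response factor was in 13.3% of the 30 and in 1.59% of all, and TATAAA in 23.3% and in 14.2%. The MEF2 matches of Myh1, Myh4 and Myh8 each contain a TATAAA. Myh4 held all 5 motifs in its window, whereas Myh7 held CATTCC alone, outside the stretch printed. These matches describe letters, not bound sites.

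Muscle transcripts were lower in tail skin than in non-anagen dorsal skin, and this held for nearly all fast isoforms. In limma's test, adjusted over all 18820 genes, 26 of the 38 genes fell by at least 1 on the log2 scale (2-fold) at an adjusted p under 0.05, a call made in the lower direction for 2.02% of all genes. None of the 38 was called higher (2 at an unadjusted p under 0.05 and any size), against 3.94% of all genes. Of the 14 fast isoforms 13 were called lower, with a median difference of -1.69. Of the 7 slow isoforms none was called in either direction (2 higher and 2 lower at an unadjusted p under 0.05 and any size), and their median difference was 0.13. Of the 17 genes in neither list 13 were called lower, with a median of -1.45, while the median of all genes was 0. Mybpc1, named the slow myosin-binding protein C, was counted in neither list and was among these 13 (-1.63). Without the size limit, 43.4% of all genes were lower and 43.7% higher, so small differences passed the test for most genes. Against anagen dorsal skin the counts were the same, with 26 genes lower, where 1.69% of all genes were called lower (34.9% without the size limit), and none higher, where 3.33% were (38.8%). Without the 5 arrays least like their group, 26 genes were lower than in non-anagen and 24 than in anagen dorsal skin. In the main batches alone, 26 were lower in each comparison.

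**Figure D1:**
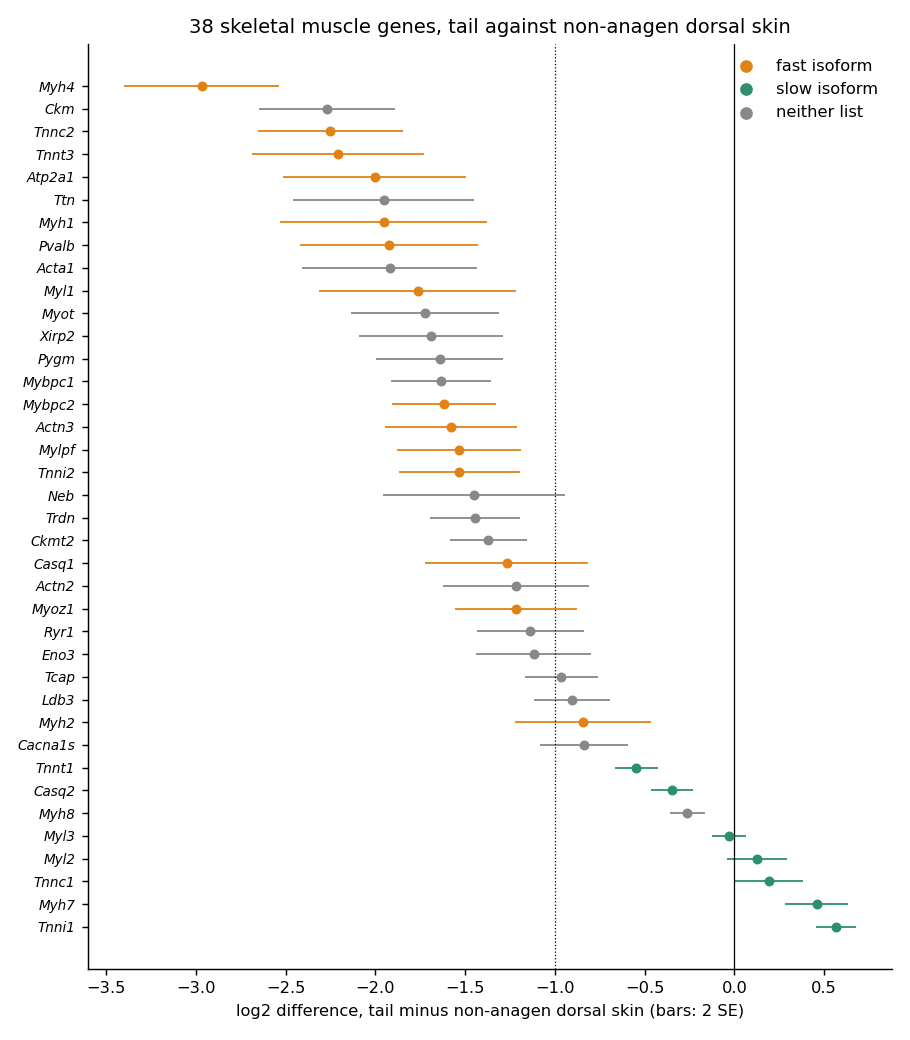
Log2 difference between tail and non-anagen dorsal skin for each of the 38 genes (points, with bars of 2 SE; 97 tail and 85 non-anagen dorsal arrays). The dotted line marks the size limit of -1; 26 genes lie left of it, and the slow isoforms (green) fill the right end with Myh8.

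Myh4, the IIb heavy chain of the fastest fibres, had the largest measured difference of the 38. In tail skin it read 4.23 in the median array (3.56 to 5.30), whereas the median was 7.77 in anagen dorsal skin (4.29 to 11.02) and 7.28 in non-anagen dorsal skin (3.92 to 11.25). No tail array reached the median of either dorsal group, and 63 of the 85 non-anagen and 11 of the 14 anagen dorsal arrays lay above the highest tail. Myh4 fell by 2.97 ± 0.22 (SE) in tails against non-anagen dorsal skin, or 7.82-fold (adjusted p = 3.91e-30), and was lower in the tail of 80 of 82 mice. Its tail values lay within the range that the Y-linked genes read in females of both tissues, up to 5.37, and its tail median was under the 4.66 that those genes reached in tails of females. Its tail level may therefore be background, which would make the measured fold a lower bound. Of the other genes lower in tails, Myh1, Pvalb, Mybpc2, Ckmt2, Xirp2, Tcap and Cacna1s also had tail medians under 4.66. The same limit may apply to them. Against anagen dorsal skin Myh4 fell by 3.51 ± 0.41 (SE; adjusted p = 3.46e-14). The fit used a shared spread, although the SD of Myh4 was 0.27 in tails and 2.13 in anagen dorsal skin. This last SE and p may therefore be too small.

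The other fast myosin chains were not confined to dorsal skin. Myh1 had a median of 4.63 in tails (3.41 to 10.11), 7.70 in anagen dorsal skin (3.43 to 9.80) and 7.15 in non-anagen dorsal skin (2.81 to 11.36). It fell by 1.95 ± 0.29 (SE; adjusted p = 2.75e-10), yet the groups overlapped over nearly their whole range, and only 11 non-anagen dorsal arrays exceeded the highest tail. Myh2 read 4.70 in the median tail (3.84 to 8.81), 6.01 in anagen dorsal skin (4.11 to 8.08) and 5.96 in non-anagen dorsal skin (4.31 to 9.82). Its difference of -0.84 ± 0.19 (SE; adjusted p = 1.97e-05) was under the size limit, which made it the fast isoform that was not called. Myh1, Myh2, Myh4 and the neonatal chain Myh8 lie side by side on chromosome 11 and are near-identical copies in places, so how far their probe sets are separate is uncertain. Myh8 stayed low everywhere, between 4.20 and 5.71 in tails and between 4.41 and 6.25 in non-anagen dorsal skin.

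Fast partners of the thin and thick filament followed Myh4 downward in tail skin. Tnnc2, the calcium sensor of fast troponin, read 5.29 in the median tail (4.60 to 8.72) and 7.69 in the median non-anagen dorsal array (4.67 to 11.69). It fell by 2.25 ± 0.20 (SE; adjusted p = 5.45e-22), the fast troponin T gene Tnnt3 fell by 2.21 and the fast inhibitory troponin Tnni2 by 1.53. Among the myosin light chains, Myl1 fell by 1.77 and Mylpf by 1.53. Mybpc2, the fast myosin-binding protein C, resembled Myh4: its tails lay between 3.72 and 6.49 and 29 of 85 non-anagen dorsal arrays lay above them all, up to 9.31. It fell by 1.62 ± 0.15 (SE; adjusted p = 2.97e-22). Pvalb, a calcium buffer of fast fibres, fell by 1.92, the Z-disc proteins Actn3 and Myoz1 by 1.58 and 1.22, and the calcium store protein Casq1 by 1.27. Atp2a1, the calcium pump of fast fibres, fell by 2.00 ± 0.25 (SE; adjusted p = 4.33e-13).

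Of the slow isoforms, Myh7, Tnnc1, Myl2 and Tnni1 had at least 10 tails above all 99 dorsal arrays, as had 20.9% of all genes. Myl3 and Tnnt1 had fewer such tails, and Casq2 had none. Myh7 read 4.83 in the median tail (4.22 to 7.78), 4.51 in anagen dorsal skin (4.08 to 4.98) and 4.65 in non-anagen dorsal skin (3.96 to 5.40). All 99 dorsal arrays stayed near the low end, while 25 of 97 tails lay above the highest of them. The mean difference was 0.46 ± 0.09 (SE; adjusted p = 7.04e-07), short of the size limit. Tnni1, the slow inhibitory troponin, read 5.42 in the median tail (4.87 to 7.28), 5.10 in anagen dorsal skin (4.75 to 5.89) and 4.96 in non-anagen dorsal skin (4.42 to 5.42). It differed by 0.57 ± 0.06 (SE; adjusted p = 9.22e-20), was higher in the tail of 72 of 82 mice, and 17 tails exceeded all 99 dorsal arrays.

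Tnnc1, the troponin C of slow fibres and heart, reached 8.10 in tails, where its median was 4.81, against at most 5.94 in non-anagen dorsal skin, where its median was 4.90. Myl2, the slow regulatory light chain, reached 7.92 in tails (median 4.59) and 5.19 in non-anagen dorsal skin (median 4.76). Their mean differences of 0.19 and 0.13 did not pass the test (adjusted p = 0.0587 and 0.142), and 20 and 17 tails lay above all dorsal arrays, while 12 and 18 lay below every non-anagen dorsal array. Shifting all arrays to the same median moved the median gene by -0.21 and turned both signs, to -0.016 for Tnnc1 and -0.078 for Myl2, whereas Myh7 stayed at 0.25 and Tnni1 at 0.36. Myl3 (-0.031, and 0.051 after quantile normalization), Casq2 (-0.35 ± 0.06) and Tnnt1 (-0.55 ± 0.06, SE) did not reach the size limit either, and 9 tails for Myl3 and 6 for Tnnt1 lay above all dorsal arrays. Below every non-anagen dorsal array lay 58 tails for Tnnt1, 5 for Casq2, 2 for Myl3 and none for Myh7 and Tnni1. The low end itself read lower in tails. In females the median of Kdm5d was 4.205 in tails and 4.631 in non-anagen dorsal skin. That of Eif2s3y was 3.26 and 3.65, and that of Uty 3.325 and 3.405. The part of this in the small differences of the slow isoforms was not tested. At least 10 tails above all 99 dorsal arrays is no rare feature, being found for 20.9% of all genes. On 2 further probe sets, which name Myh7 together with Mhrt or with the heart chain Myh6, the tails stayed at or below 4.34 and 4.98, so the high tail values rest on the probe set that names Myh7 alone.

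**Figure D2:**
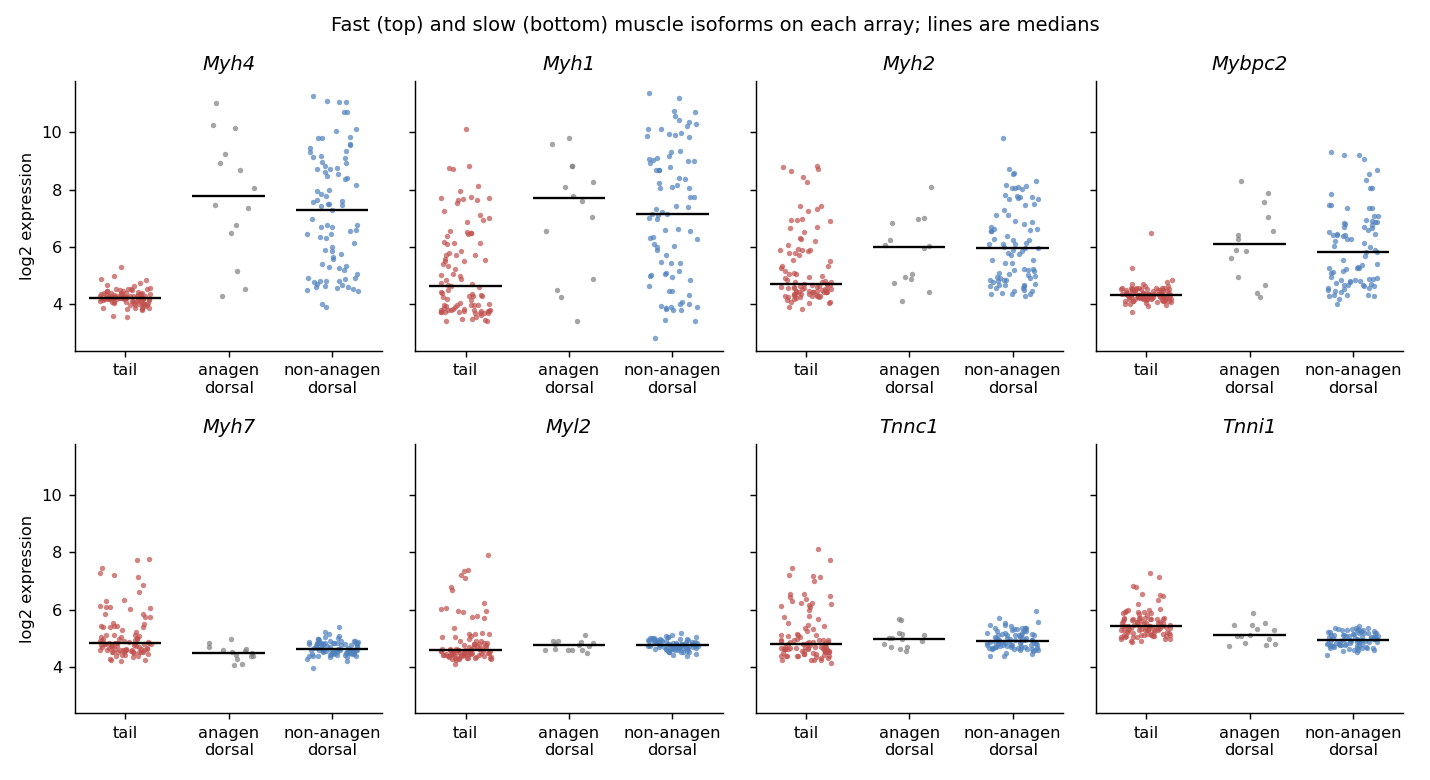
Log2 expression of 4 fast isoforms (top row) and 4 slow isoforms (bottom row) on each array, with tail, anagen dorsal and non-anagen dorsal skin from left to right and lines at the medians. Myh4 and Mybpc2 spread upward in dorsal skin, Myh7, Myl2, Tnnc1 and Tnni1 in some tails, and Myh1 and Myh2 in both.

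Genes shared by both fibre types fell as well. Acta1, skeletal muscle actin, read 6.60 in the median tail (5.45 to 11.20), 9.53 in anagen dorsal skin (5.99 to 11.53) and 9.25 in non-anagen dorsal skin (5.91 to 12.43). It fell by 1.92 ± 0.24 (SE; adjusted p = 3.57e-13). The giant proteins followed, with titin (Ttn) lower by 1.95 and nebulin (Neb), the ruler of the thin filament, by 1.45 on the log2 scale in tails. Both groups ran over almost the same range for these genes: Ttn lay between 4.39 and 10.35 in tails and between 4.72 and 11.37 in non-anagen dorsal skin. Of the Z-disc genes, Actn2 fell by 1.22, Myot by 1.72 and Xirp2 by 1.69. Tcap (-0.96) and Ldb3 (-0.91) were just under the size limit and passed it after the shift to equal medians (-1.17 and -1.11), as did Myh2 (-1.05) and the calcium channel Cacna1s (-0.84, then -1.04).

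The energy genes were lower in tails as well. Ckm, the creatine kinase that buffers ATP in the sarcomere, read 6.15 in the median tail (5.44 to 10.21), 9.13 in anagen dorsal skin (6.86 to 11.29) and 8.89 in non-anagen dorsal skin (6.10 to 11.91). It fell by 2.27 ± 0.19 (SE), or 4.82-fold (adjusted p = 1.67e-24), and was lower in the tail of 75 of 82 mice. Its other probe set differed by only -0.40. The mitochondrial creatine kinase Ckmt2 fell by 1.37 and was lower in the tail of 81 of 82 mice. Its tail median was 4.02, under the 4.66 that the Y-linked genes reached in tails of females. The muscle glycogen phosphorylase Pygm fell by 1.64 and the muscle enolase Eno3 by 1.12. In the calcium release machinery, the ryanodine receptor Ryr1 fell by 1.14 and triadin (Trdn), which ties it to calsequestrin, by 1.45. All 19 probe sets of Trdn were lower in tails, by 0.68 to 2.30. Mybpc1, named the slow myosin-binding protein C although fast fibres also make it, fell by 1.63, much as Mybpc2 did.

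How much muscle RNA an array held differed widely within each group. The mean over the 38 genes was 5.10 in the median tail (4.74 to 8.36), 6.84 in the median anagen dorsal array (5.16 to 8.47) and 6.73 in the median non-anagen dorsal array (5.05 to 9.63). The upper quartile of the tails was 5.87, so the high tails were few. The slope of each gene on the mean of the other 37 shows which genes moved when that mean moved. Myh4 had a slope of 0.15 ± 0.03 (SE) in tails and of 1.52 ± 0.09 in non-anagen dorsal skin, a difference of -1.37 ± 0.09. Mybpc2 had slopes of 0.14 ± 0.04 in tails and 1.09 ± 0.04 in non-anagen dorsal skin. Without the 5 tails of the highest mean, the tail slope of Mybpc2 was 0.003 and that of Myh4 0.16.

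The slow isoforms had the opposite slopes. Myh7 had a slope of 0.93 ± 0.04 (SE) in tails and of -0.002 ± 0.021 in non-anagen dorsal skin. Tnnc1 had slopes of 1.03 in tails and 0.015 in non-anagen dorsal skin, Myl2 0.88 and 0.005, Tnnt1 0.59 and -0.014, Tnni1 0.50 and 0.024, and Myl3 0.38 and -0.024. Casq2 stood apart from them with 0.22 and 0.11. In anagen dorsal skin the 7 slow slopes lay between -0.040 and 0.13. In non-anagen dorsal skin the medians of these genes, except Tnnt1 (5.77), lay under the 5.37 that Y-linked genes reached there in females. Their slopes near 0 there may thus come from background, which was not tested. Myh1 had nearly equal slopes of 1.91 in tails and 1.88 in non-anagen dorsal skin, as had Ckm (1.26 in both), and Myh2 was steeper in tails, at 1.54 against 1.04. Among genes of neither list, Mybpc1 was also steeper in tails (1.18 against 0.68). Leaving out the 5 tails of the highest mean left slopes of 0.87 for Myh7, 1.07 for Tnnc1 and 0.82 for Myl2. In the main batches alone (94 tails, 75 non-anagen dorsal arrays) the slopes were 0.16 in tails and 1.55 in dorsal skin for Myh4, and 0.94 and 0.003 for Myh7. These differences in slope were not tested, since the mean is built from the genes themselves.

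**Figure D3:**
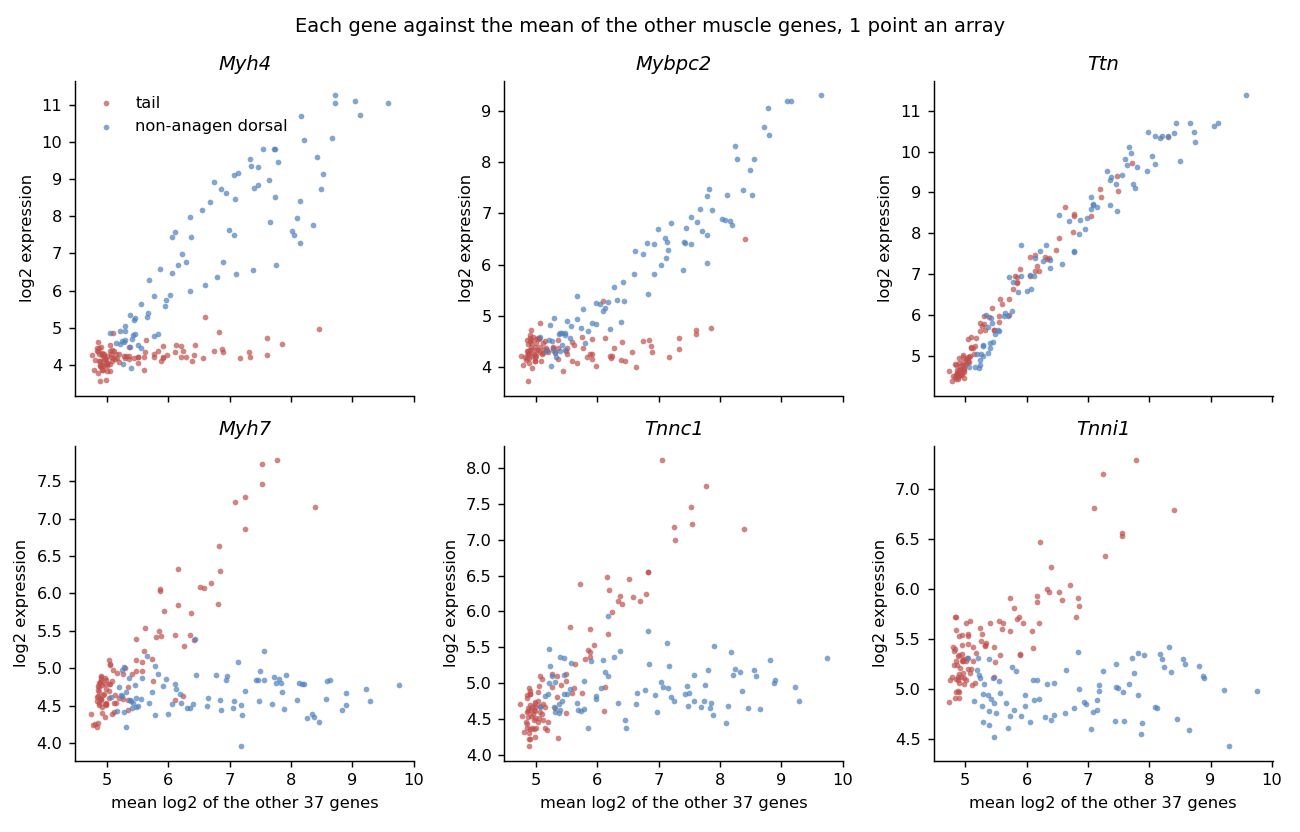
Log2 expression of 6 genes against the mean of the other 37 genes, with a point for each of the 97 tail arrays (red) and 85 non-anagen dorsal arrays (blue). Ttn climbs in both tissues (slopes 1.85 in tails and 1.59 in dorsal skin), Myh4 and Mybpc2 climb in dorsal skin, and Myh7, Tnnc1 and Tnni1 climb in tails.

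**Figure D4:**
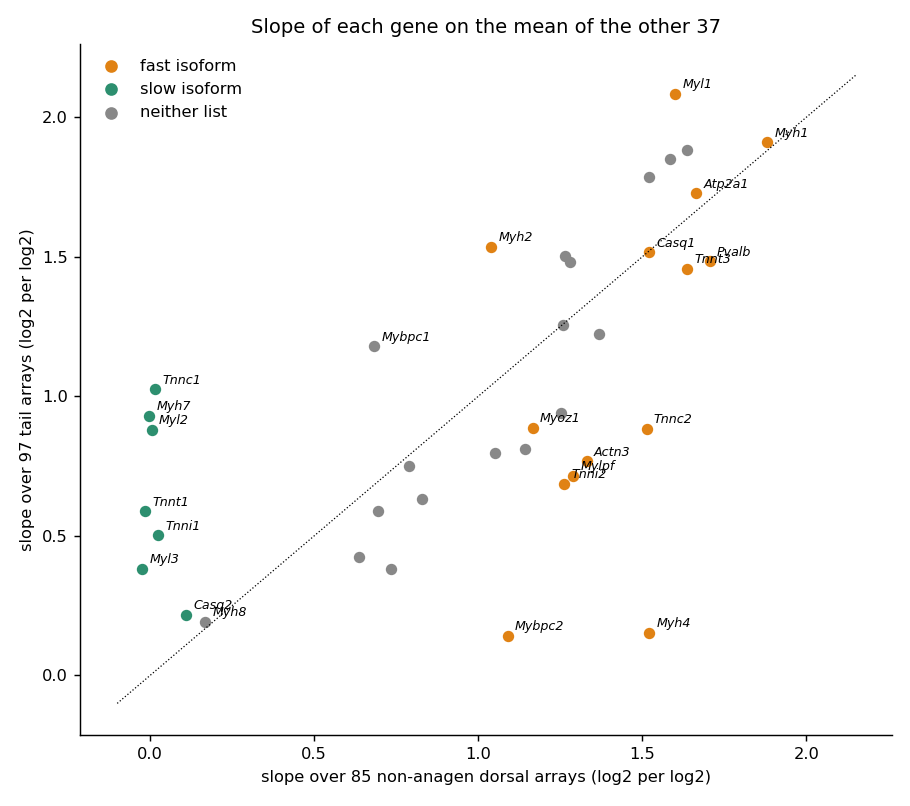
Slope of each gene on the mean of the other 37, over 97 tail arrays (vertical axis) against 85 non-anagen dorsal arrays (horizontal axis); the dotted line marks equal slopes. The 7 slow isoforms lie near 0 on the dorsal axis, and Myh4 (0.15 in tails, 1.52 in dorsal skin) and Mybpc2 (0.14 and 1.09) lie at the opposite corner.

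Single arrays with nearly the same mean over the 38 genes were set side by side. The tail with the highest mean over the 38 genes (8.36) and the non-anagen dorsal array nearest to it (8.35) had titin at 10.35 and 10.37. Myh4 was at 4.98 in that tail and 7.78 in the dorsal array, whereas Myh7 was at 7.16 in the tail and 4.29 in the dorsal array. For the next tail (mean 7.77, against 7.77 in its dorsal match), titin read 9.73 in the tail and 9.20 in the dorsal array, Myh4 4.55 and 9.81, and Myh7 7.78 and 4.69. For the tail after that (mean 7.53, against 7.51 in its dorsal match), Myh4 read 4.28 in the tail and 9.33 in the dorsal array and Myh7 7.47 and 5.23, but titin differed too, at 9.41 and 8.54. Correlations over arrays, which share their normalization, were also computed. Slow isoforms had a median Pearson r with each other of 0.84 over 97 tails and 0.11 over 85 non-anagen dorsal arrays, across 21 pairs. Most of them had dorsal medians within the range of the Y-linked genes in females, and the part of background in the low dorsal r was not tested. Fast with slow isoforms had medians of 0.78 in tails and 0.033 in non-anagen dorsal skin. Fast with fast isoforms had medians of 0.89 in tails (lowest pair 0.24) and 0.94 in non-anagen dorsal skin (lowest pair 0.76), and Myh4 with Myh1 gave 0.495 in tails and 0.81 in non-anagen dorsal skin.

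Within the 82 mice that had both tissues, the difference between tail and non-anagen dorsal skin was taken for each fast gene and for its slow counterpart. For the heavy chains it averaged -2.92 for Myh4 and 0.43 for Myh7, so that the fast gene was lower than the slow by a further 3.35 (SD 2.18), in 81 of 82 mice. For Myh1 less Myh7 the gap was -2.42 (SD 2.39), the fast gene being lower in 65 of 82 mice. For troponin I the gap between Tnni2 and Tnni1 was -2.08 (SD 1.495; 77 of 82 mice). For troponin C, Tnnc2 less Tnnc1 was -2.43 (SD 1.87; 73 mice), and for troponin T, Tnnt3 less Tnnt1 was -1.66 (SD 2.04; 61 mice). The light chain pairs gave -1.63 (SD 1.60; 67 mice) for Mylpf less Myl2 and -1.76 (SD 2.30; 65 mice) for Myl1 less Myl3. For calsequestrin, Casq1 less Casq2 was -0.94 (SD 1.96; 52 mice). Mybpc2 less Mybpc1 was 0.066 (SD 1.27), with the fast gene lower in 36 mice and higher in 46. In non-anagen dorsal skin the medians of the slow counterparts lay under 5.37, except for Tnnt1 (5.77) and Mybpc1 (7.01). Y-linked genes reached 5.37 in females there, so most slow genes may have had little room to fall in tails. How far this made the gaps was not tested. No p is given for these gaps, since the pairs were chosen with earlier results known.

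The growth phase of the hair cycle was not accompanied by a called change in any of the 38 genes. Between anagen and non-anagen dorsal skin limma called 0 of 38, while 4.11% of all genes were called higher and 3.59% lower. At an unadjusted p under 0.05, 2 of the 38 passed: Tnni1 at 0.19 ± 0.07 (SE; adjusted p = 0.0949) and Myh7 at -0.17 ± 0.07 (SE; adjusted p = 0.126). At that unadjusted p, 1579 of all 18820 genes were higher and 2091 lower. The anagen median of Myh4 was 7.77, against 7.28 without anagen, and its difference of 0.58 ± 0.58 (SE; adjusted p = 0.656) was no larger than its error. For Ckm it was 0.11 ± 0.43 (SE) and for Ttn -0.071 ± 0.55 (SE). The 14 anagen arrays thus leave room for differences of about 2 SE in either direction.

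Females and males did not differ by a called amount in either tissue. In tails limma called 0 of 38 genes, where 1.64% of all genes were called higher in females and 1.20% lower. All 38 differences were positive in tails, from 0.011 (Mybpc2, which turned to -0.008 after quantile normalization) to 0.79 (Myl1). Of them, 15 had an unadjusted p under 0.05, while 1500 of all 18820 genes were higher in females at that p. Ttn had a median of 5.83 in tails of females (4.39 to 9.73) and 4.88 in tails of males (4.45 to 10.35), a difference of 0.70 ± 0.29 (SE; adjusted p = 0.184). Of the slow genes, Myl2 differed by 0.43 ± 0.16 (SE; adjusted p = 0.123) and Tnnc1 by 0.45 ± 0.18 (SE; adjusted p = 0.155). In non-anagen dorsal skin 0 of 38 were called, where 6.19% of all genes were called higher in females and 6.11% lower. There 33 of the 38 differences were negative, 1 of them (Casq2) with an unadjusted p under 0.05. At that p, 2196 of all 18820 genes were lower in females there. In the main batches alone, 0 of 38 were called in either tissue. Because the 38 genes rise and fall together between arrays, their shared signs are not separate observations.

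Calls of a sex effect that differed between tissues were no more frequent among the 38 genes than over all genes. All 38 differences between the sex effects, tails less non-anagen dorsal skin, were positive. Their median was 0.44, where that of all genes was -0.015. Of them, 5 had an unadjusted p under 0.05, while 1861 of all 18820 genes were higher at that p. Myl1 had the largest, 0.88 ± 0.55 (SE), and was not called. These genes rise and fall together, so the shared signs are not separate observations. The member called was Casq2, calsequestrin of slow fibres and heart. Its median was 5.03 in females and 4.82 in males in tails, and 5.12 in females and 5.31 in males in non-anagen dorsal skin. The difference between females and males was larger by 0.41 ± 0.12 (SE) in tails than in non-anagen dorsal skin (adjusted p = 0.0137 for the interaction), the only 1 of the 38 called higher, against 4.46% of all genes, and none was called lower (4.63%). With the mouse as a random block, Mybpc1 (0.78, adjusted p = 0.0492) was called as well. The ranges of all 4 groups overlapped for both genes. The medians of Casq2 were low, lying under the 5.37 that the Y-linked genes reached in non-anagen dorsal skin of females, though in tails above the 4.66 they reached there. Markers of other cell types had the same interaction called higher in 7 of 10 smooth muscle genes (median 0.53), 5 of 5 blood vessel genes (0.54) and 4 of 5 dermal matrix genes (0.71), and their part in the Casq2 result was not tested.

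**Figure D5:**
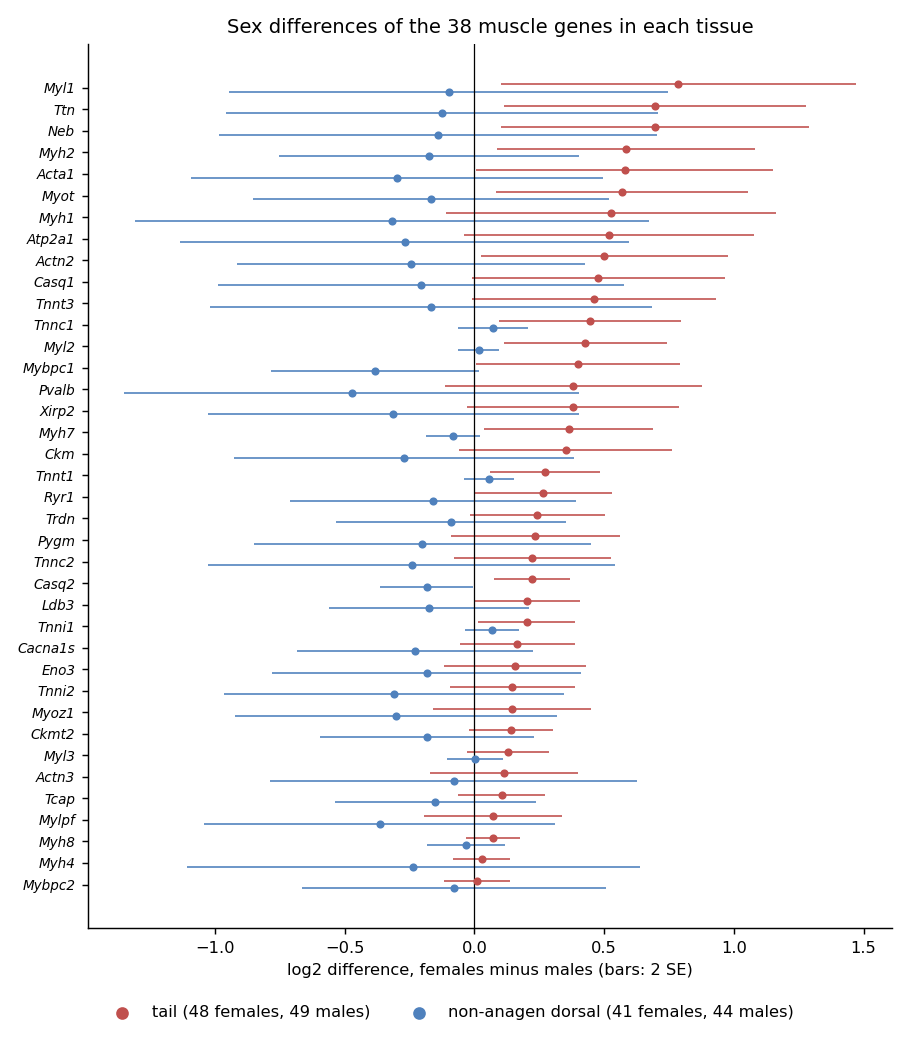
Log2 difference between females and males for each of the 38 genes in tail skin (red, 48 females and 49 males) and non-anagen dorsal skin (blue, 41 females and 44 males), with bars of 2 SE. All tail differences lie right of 0 and 33 of the dorsal ones left of it, with most dorsal bars crossing 0.

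Muscle gene levels in a mouse's tail were set against those in its own dorsal skin. Over 82 mice and after adjusting each tissue for sex and batch, Myh4 gave a Pearson r of 0.30 (permutation p = 0.00635, two-sided). Its Spearman rho was 0.38 (permutation p = 0.0007). Its r was the highest of the 38 genes, and these permutation p-values were not adjusted for that. Its tail values covered less than the dorsal ones and may be background. After adjustment over all genes, its p was 0.0667, and r was 0.29 without the 2 mice farthest from the dorsal median and 0.34 over the 72 mice of the main batches. For the other 4 genes examined, r was 0.10 for Ckm, 0.13 for Acta1, 0.090 for Myh7 and -0.023 for Tnni1, with permutation p-values of 0.368, 0.249, 0.424 and 0.836. The median r over the 38 genes was 0.12 and that over all genes 0.081, and none of the 38 had an adjusted p under 0.05, while 1666 of all 18820 genes had.

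Other genes of striated muscle were taken from lists drawn up with earlier results known. Over all genes, 2.02% were called lower in tails than in non-anagen dorsal skin and 3.94% higher. Of 27 further sarcomere genes 9 were called lower in tails and none higher, with a median of -0.52, led by Tmod4 (-1.87), Myom1 (-1.58), Tpm2 (-1.49) and Cmya5 (-1.28). In the list of excitation and contraction coupling, 1 of 21 was called lower, the myosin light chain kinase Mylk2 (-1.15). Among 24 further energy genes 4 were called lower, namely Ppp1r3a (-1.46), Pdk4 (-1.19), Pgam2 (-1.12) and Cox6a2 (-1.06), and the hexokinase Hk2 was higher by 1.14. Of 8 genes of the dystrophin complex, Dmd (-1.29) and Sgca (-1.03) were called lower and Dag1 (1.03) higher. None of 12 regulators of the muscle lineage and its satellite cells reached the size limit. Among them Mstn (-0.96), Myf6 (-0.92), Chodl (-0.41), Myf5 (-0.32), Myog (-0.29), Vgll2 (-0.25), Cdh15 (-0.22), Myod1 (-0.13) and Mef2c (-0.097) were negative. Pax3 (0.58), Itga7 (0.52) and Pax7 (0.25) were positive.

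The genes that tracked the mean of the 38 most closely were muscle genes too. Over the 85 non-anagen dorsal arrays, adjusted for sex and batch, the 10 highest correlations were those of Apobec2 (r = 0.98), Klhl41, Klhl31, Cmya5, Txlnb, Myom2, Pgam2, Smpx, Ppp1r3a and Cox6a2 (r = 0.95). The 5 lowest were those of Paqr5, Sult2b1, Krtcap3, Spint2 and Phyhip, with r between -0.54 and -0.51. Over the 97 tails Klhl41 (r = 0.98), the oxygen store Mb (r = 0.97), Cmya5, Myoz2 and Des (r = 0.94) came highest. Mb, which is abundant in slow and oxidative fibres, read 5.85 in the median tail (4.72 to 10.47) and 6.83 in the median non-anagen dorsal array (5.11 to 11.38), and its difference of -0.71 ± 0.22 (SE; adjusted p = 0.002) was under the size limit.

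Markers of some other cell types moved with the tissue or with the muscle genes, and those of others did not. Of 10 smooth muscle genes 8 were called lower in tails, where 2.02% of all genes were. The mean of this list lay between 5.98 and 7.56 in tails. It lay between 7.88 and 9.06 in anagen dorsal skin and between 7.63 and 9.18 in non-anagen dorsal skin. Its r with the mean of the 38 genes was 0.71 over 97 tails and 0.29 over 85 non-anagen dorsal arrays. That list includes Des (-3.50), which skeletal muscle also makes. Of 6 tendon genes 4 were called higher in tails, where 3.94% of all genes were. The mean of the 6 ran with the 38 genes at r = 0.61 over tails and 0.17 over non-anagen dorsal arrays. Blood vessel genes had r = 0.41 over tails and 0.53 over non-anagen dorsal arrays, and 0 of 5 were called between these tissues. White fat genes had r = 0.29 over tails and 0.60 over non-anagen dorsal arrays. Of the 10, 8 were called higher in tails of females than of males, where 1.64% of all genes were. The part of these in the muscle results was not tested. Markers made in heart but hardly in limb muscle stayed low in the tails, with 5 genes between 4.55 and 5.13 on average in tails (r = -0.043): Tnni3, Ryr2, Nppa, Nppb and Myl7 differed by -0.43, -0.42, -0.18, 0.26 and 0.14 from non-anagen dorsal skin.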

How the data were processed

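The authors deposited log2 expression values for the 97 tail, 14 anagen dorsal and 85 non-anagen dorsal arrays, made with RMA per the submitters' processing notes. Which version was run is not stated there. Of 35556 probe sets, 21218 named a single gene. The brightest was kept per gene, which left 18820 genes, of which 1386 had several probe sets. No array and no low value was left out. No arrays were identical.

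Linear models (limma 3.58.1 under R 4.3.3, lmFit then eBayes) gave the differences, with Benjamini-Hochberg adjustment over all genes. The tissue fit used all 3 groups, with sex as a term. The other fits had batch within tissue, and sex for the hair cycle. Calls needed an adjusted p under 0.05 and, between tissues, 1 on the log2 scale. The fits were checked on simulated data. Correlations between tissues used 100000 permutations, and their adjusted p came from 100 random pairings of mice pooled over all genes. Python 3.11.15, numpy 2.4.6, pandas 2.3.3, scipy 1.17.1 and matplotlib 3.10.9 were used.

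The mouse number pairs the tissues, since both come from the same animal. The deviations of the paired arrays had a median correlation of 0.164 over 82 mice, and 60 were over 0.1. Sex and batch were left in, and arrays of different mice were not compared, so these values do not test the pairing.

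The members, the gene lists and the tests were chosen with earlier results of these data known. All members are named, with the 12 regulators and the 5 heart genes in full, and the genes nearest the members' mean. From the other lists only some genes are named, mostly called ones, and none from the tendon and white fat lists. Lists for brown fat, dermal matrix, epidermis, Schwann cells and blood vessels were also made. Of these, 2 of 5 brown fat genes were called lower in tails, and 0 of 5, 0 of 5, 0 of 2 and 0 of 5 of the others. Over all genes, 2.02% were called lower in tails. Array number limits the precision. Each array is another mouse, so the spread includes that between genetically different animals. The alternatives were shifting arrays to equal medians, quantile normalization, the mean of all probe sets, a filter on low values, the main batches alone, mouse as a block, and dropping the sex or batch term.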

Additional observations from a re-analysis of the deposited data

Results flagged for a closer look

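The sex effect on Casq2 was called different between the tissues. It was the only 1 of the 38 called higher, where 4.46% of all genes were. The difference between females and males was larger by 0.406 on the log2 scale in tail skin than in non-anagen dorsal skin (limma interaction, adjusted p = 0.0137), being 0.22 ± 0.07 (SE) in tails and -0.18 ± 0.09 (SE) in non-anagen dorsal skin. Its values are low, and it was removed by the filter on low values. Neither of these differences passed the threshold alone (adjusted p = 0.0771 and 0.169). All 38 members had a positive interaction, with a median of 0.44, so 0.406 was not large among them.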

How the results depend on the processing

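For the tissue comparisons, the count of members called lower was 26 against non-anagen dorsal skin; it was 30 once all arrays had equal medians, 27 with quantile normalization and 26 within mouse. With equal medians the calls over all genes were 489 higher and 620 lower, where 741 higher and 381 lower were called as deposited, so the split of all calls depends on the scaling. Equal medians likewise gave 408 higher and 494 lower in place of 627 and 318 against anagen dorsal skin, 388 and 445 in place of 309 and 225 for females against males in tails, and 811 and 1381 in place of 839 and 872 for the interaction. For anagen against non-anagen dorsal skin the same shift gave 705 higher and 927 lower calls over all genes in place of 774 and 676, and leaving out the 5 arrays least like their group gave 632 and 216, an alternative chosen after seeing the data. For females against males in tails, 1 member (Casq2) was called higher with equal medians (adjusted p = 0.0304) and without those 5 arrays (adjusted p = 0.0494), where 0 were called as deposited. Mouse as a random replicate block, in a paired fit, made 2 members called in the interaction in place of 1, and changed no other call against non-anagen dorsal skin. Against anagen dorsal skin, the within-mouse fit left 24 members lower, Neb (adjusted p = 0.0588) and Actn2 (adjusted p = 0.075) no longer passing. Without the 5 arrays, 24 were lower there as well, Actn2 (-0.94) and Eno3 (-0.90) missing the size limit. The sign of Tnnc1, Myl2 and Myl3, never called between tissues, turned under 1 or more alternatives against both kinds of dorsal skin, and no called difference changed sign. Of single members, 11 calls were gained and 4 lost over all comparisons and alternatives, and 49 slopes moved by more than their SE. For females against males in non-anagen dorsal skin the main batch alone gave 774 higher calls over all genes in place of 1165. The causes were not tested. A filter on low values kept 22 of the 38 members between the tissues but 6 within tails, and as members passed largely through dorsal skin, their direction gives no further check. It removed Casq2, so the interaction has no value for it there, and Mybpc1 (0.78, adjusted p = 0.0448) was then the member called.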
